A study of Homo sapiens with 6 samples.

Results

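The expression of 10 genes that write, maintain, erase or recruit DNA methylation or that form the core of Polycomb repressive complex 2 (PRC2) was examined in MDA-MB-231 cells with and without a hairpin against brachyury. The genes were taken by symbol from the 54259 gene symbols of the count table, and all 10 of them passed the expression filter, which kept 15277 genes. They were DNMT1, DNMT3A, DNMT3B, UHRF1, HELLS, TET2, TET3, EZH2, SUZ12 and EED. RNA-Sequence was performed on 3 libraries of MDA-MB-231 cells with the shRNA named shBry and 3 libraries of the same line with the control shRNA named shNC. MDA-MB-231, an established line of human breast cancer, is of mesenchymal type, and no drug treatment or time point is given for either group. The hairpin sequence, the number of clones and whether the libraries came from separate cultures are not stated in the sources used here, so the p-values measure the spread between these libraries, which may be technical. The question of the study was which genes and pathways lie downstream of the T-box factor brachyury.

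DNA methylation is set by the de novo enzymes DNMT3A and DNMT3B and copied after each round of replication by DNMT1, which UHRF1 brings to hemimethylated DNA and which the remodelling enzyme HELLS helps in packed chromatin. TET2 and TET3 oxidize methylcytosine and so start its removal. PRC2 silences genes by methylating histone H3 at H3K27, with EZH2 or its paralog EZH1 as the catalytic subunit and SUZ12 and EED as the subunits without which the enzyme is inactive. Transcripts of DNMT1, UHRF1, HELLS and EZH2 are known to be more abundant in dividing cells.

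The libraries held between 19319411 and 22985371 counts. Brachyury was listed at 0 counts in all 6 libraries, so the knockdown could not be checked on its own transcript. The paper describes brachyury as constitutively overexpressed in this line, but the shNC libraries had 0 counts as well. This difference was not resolved here. With 0 counts a level of 0.155 CPM remains possible in the shallowest library (3 counts, counting error only). The sample labels and the methods name MDA-MB-231 cells, but the design text deposited with the series speaks of pericardial RNA, and this was not resolved here. The labelled cell line was checked on marker genes. The 10 mesenchymal markers together had 7550 to 9020 CPM in every library, while the epithelial cadherin gene CDH1 had at most 2 counts, the estrogen receptor gene ESR1 at most 1 and the leukocyte gene PTPRC 0. The 11 leukocyte markers summed to 11.5 to 13.1 CPM in shBry and 17 to 20.5 CPM in shNC, with 1 called higher and 2 lower, and the 9 fibroblast markers to 30.2 to 35.9 CPM over both groups. The 12 luminal epithelial markers summed to 579 to 717 CPM in shBry and 1370 to 1490 CPM in shNC. Of them, 4 were called lower and 1, EPCAM, higher, at 4.28 CPM in shBry and 1.55 CPM in shNC. Most of the sum came from the keratin genes KRT8 and KRT18. KRT8 had means of 239 CPM in shBry and 891 CPM in shNC, and KRT18 had 372 and 508 CPM. The 7 endothelial markers summed to 250 to 296 CPM in shBry and 143 to 166 CPM in shNC. Of them, 1 was called higher and 1 lower. Nearly all of this sum was ESAM, with means of 275 CPM in shBry and 151 CPM in shNC. The part of these markers in the results was not tested. In shBry, replicate 2 differed most from its partners, with chi-square values over genes of 17.1 and 12.1 per degree of freedom against 6.53 between replicates 1 and 3. In shNC, replicate 3 differed most, with 10.8 and 8.93 against 5.04. Results that rest on these libraries are given with and without them.

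A gene was called when its p, adjusted by the Benjamini-Hochberg method over all tested genes, in edgeR's quasi-likelihood test was below 0.05 and its fold change was above 1.5 (0.58 on the log2 scale). SE stands for the standard error of that log2 value. Of the 10 genes, 5 were called lower in shBry, namely DNMT1, UHRF1, HELLS, DNMT3B and EZH2, and TET3 was called higher. Over all tested genes, 32.4% were called, 15.2% lower and 17.1% higher. The median log2 fold change of the 10 genes was -0.49, and that of all tested genes was 0.03. DNMT3A, TET2, SUZ12 and EED did not pass the test. With a fold change limit of 2, HELLS and TET3 remained. In bulk RNA, fewer cells that express a gene and less RNA per cell cannot be told apart.

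**Figure D1:**
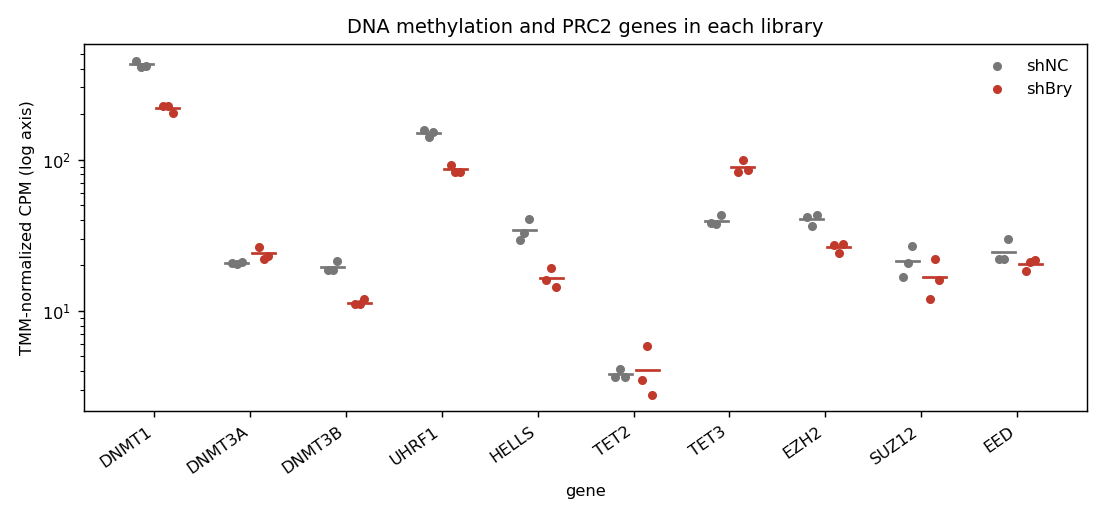
Level of each gene in each library as TMM-normalized CPM on a log axis. Each point is 1 library and each short line a group mean (n = 3), with shNC in grey and shBry in red. All shBry points of DNMT1, UHRF1, HELLS, DNMT3B and EZH2 lie below the shNC points, those of TET3 lie above them, and those of TET2 and SUZ12 overlap.

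The genes that copy methylation to new DNA were lower in shBry. DNMT1, at 10133345 to 10231286 of chromosome 19 (GRCh38, minus strand), had 225, 225 and 204 CPM in shBry replicates 1 to 3 and 451, 409 and 418 CPM in shNC. The groups were far apart, and the spread within each was small. DNMT1 fell by 0.97 on the log2 scale (SE 0.08, edgeR adjusted p = 2.2e-07), from 426 ± 22.2 to 218 ± 12.4 CPM (SD, n = 3). With 4185 to 9848 counts per library, it rests on the most reads of the 10 genes. The gene S1PR2 overlaps 0.847% of its exon bases.

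UHRF1, which encodes the ubiquitin ligase that reads hemimethylated CpG sites, lies on chromosome 19 from 4903080 to 4962154 on the plus strand. It had 92.1, 83 and 83.3 CPM in shBry and 158, 141 and 153 CPM in shNC. The groups did not overlap. UHRF1 fell by 0.81 on the log2 scale (SE 0.08, edgeR adjusted p = 2.2e-06). Of the stretches of 50 bases in its transcripts, 21.1% were shared with other genes, most of them with AC112777.1, so some of its reads could have been split or lost in the counting.

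HELLS, which encodes a chromatin remodelling helicase that DNA methylation at repeats depends on, lies on chromosome 10 from 94501434 to 94613905 on the plus strand. It had 16, 19.3 and 14.4 CPM in shBry and 29.5, 32.9 and 40.6 CPM in shNC. Every shBry library was below every shNC library, although the shNC values differed among themselves with a coefficient of variation of 16.6%. HELLS fell by 1.05 on the log2 scale (SE 0.14, edgeR adjusted p = 3.1e-05), which was the largest fall among these 10. AL138759.1 overlaps 4.32% of its exon bases.

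Promoters were read because E2F factors, which drive many genes of S phase, bind letters such as TTTNGCGC or TTTCCCGC, and the factor NF-Y binds CCAAT. Those of 5 genes called lower (UHRF1, HELLS, EZH2, DNMT1 and DNMT3B) and of TET3, which was called higher, are shown. That of SUZ12, which was not called, is shown because it held an E2F-type match. EED, also not called, held a CCAAT match only and is not shown. The sequences are the 250 bases before the start of each gene in RefSeq (GRCh38.p14), read 5′ to 3′ on the strand of the gene. Capitals mark matches to these 3 motifs on either strand, and none of the marked matches overlap.
UHRF1 (chr19:4909251-4909500, plus strand): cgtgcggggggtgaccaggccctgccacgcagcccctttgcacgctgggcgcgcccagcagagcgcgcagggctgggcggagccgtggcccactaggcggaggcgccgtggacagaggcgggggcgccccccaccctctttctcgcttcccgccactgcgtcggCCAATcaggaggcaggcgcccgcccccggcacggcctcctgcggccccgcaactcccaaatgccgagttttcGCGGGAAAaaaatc
HELLS (chr10:94545538-94545787, plus strand): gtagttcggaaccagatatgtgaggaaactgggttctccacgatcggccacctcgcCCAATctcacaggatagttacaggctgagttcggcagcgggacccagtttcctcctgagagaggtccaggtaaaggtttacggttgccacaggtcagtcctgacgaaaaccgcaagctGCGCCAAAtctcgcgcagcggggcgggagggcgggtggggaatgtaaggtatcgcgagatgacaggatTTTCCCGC
EZH2 (chr7:148884292-148884541, minus strand): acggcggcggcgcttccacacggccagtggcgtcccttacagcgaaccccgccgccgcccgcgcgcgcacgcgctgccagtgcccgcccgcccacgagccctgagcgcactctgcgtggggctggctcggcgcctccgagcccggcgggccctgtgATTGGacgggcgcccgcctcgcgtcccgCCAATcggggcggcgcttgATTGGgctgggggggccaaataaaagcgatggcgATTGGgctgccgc
DNMT1 (chr19:10194954-10195203, minus strand): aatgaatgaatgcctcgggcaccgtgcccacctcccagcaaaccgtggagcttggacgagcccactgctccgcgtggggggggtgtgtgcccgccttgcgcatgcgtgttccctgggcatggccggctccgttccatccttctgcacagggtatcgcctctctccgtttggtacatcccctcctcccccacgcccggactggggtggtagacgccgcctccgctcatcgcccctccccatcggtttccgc
DNMT3B (chr20:32779602-32779851, plus strand): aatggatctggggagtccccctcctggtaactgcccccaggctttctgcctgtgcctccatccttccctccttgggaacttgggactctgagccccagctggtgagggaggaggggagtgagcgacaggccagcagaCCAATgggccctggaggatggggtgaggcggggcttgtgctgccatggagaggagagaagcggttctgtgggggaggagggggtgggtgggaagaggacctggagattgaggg
SUZ12 (chr17:31936757-31937006, plus strand): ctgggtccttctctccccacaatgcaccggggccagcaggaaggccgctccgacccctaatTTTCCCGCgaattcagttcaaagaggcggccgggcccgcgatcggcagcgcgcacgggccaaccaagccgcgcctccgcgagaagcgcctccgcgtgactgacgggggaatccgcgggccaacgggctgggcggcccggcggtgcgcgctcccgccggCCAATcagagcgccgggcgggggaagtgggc
TET3 (chr2:73984660-73984909, plus strand): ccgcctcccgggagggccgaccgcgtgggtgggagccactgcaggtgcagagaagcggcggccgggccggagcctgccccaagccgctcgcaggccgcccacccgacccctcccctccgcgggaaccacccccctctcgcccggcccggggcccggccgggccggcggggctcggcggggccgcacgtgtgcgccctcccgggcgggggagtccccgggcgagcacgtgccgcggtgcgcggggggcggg

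Both HELLS and UHRF1 held E2F-type letters next to the start. In HELLS, TTTCCCGC ended at the last base before the start, and GCGCCAAA, a match to TTTNGCGC on the other strand, stood 76 to 69 bases before it. In UHRF1, GCGGGAAA, the other strand of TTTCCCGC, stood 14 to 7 bases before the start. SUZ12 held TTTCCCGC 189 to 182 bases before its start. Among 35116 RefSeq promoters of the same length, 1.51% held TTTNGCGC, 1.39% held TTTCCCGC and 2.86% held either. No such letters were found in this window of the other 7 genes, among them DNMT1, DNMT3B and EZH2, which were lower in shBry. CCAAT or its other strand occurred 4 times in EZH2 and once each in UHRF1, HELLS, SUZ12, DNMT3B and EED, against 32% of all promoters with at least 1 match and 0.874% with 4 or more. TTTGAA, the letters of the CHR element of genes of mitosis, occurred 2 times in TET2 and once in SUZ12 on either strand, against 13.3% of all promoters. RefSeq gives 1 start per gene here, and the starts of DNMT1, DNMT3B, UHRF1 and HELLS lie well inside the gene spans of GENCODE 29, while that of TET3 lies before its span, so other promoters of these genes were not searched. The windows held 3 CpG sites in DNMT3B, 10 in TET2, 11 in EED, 18 in HELLS, 21 each in DNMT1 and DNMT3A, 28 in UHRF1, 34 in SUZ12, 37 in TET3 and 38 in EZH2, with a median of 11 over all promoters, so that a high number was found in genes of either direction. A match is a description of these letters and does not show that a factor bound there.

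Of the de novo enzymes, DNMT3B was lower in shBry and DNMT3A was not called. DNMT3B, on chromosome 20 from 32762385 to 32809356 on the plus strand, had 11.1, 11.1 and 11.9 CPM in shBry and 18.7, 18.6 and 21.4 CPM in shNC. The groups did not overlap, and DNMT3B fell by 0.78 on the log2 scale (SE 0.12, edgeR adjusted p = 0.00012). DNMT3A, on chromosome 2 from 25227855 to 25342590 on the minus strand, had 26.5, 22.2 and 23.2 CPM in shBry and 20.8, 20.5 and 21.2 CPM in shNC. All 3 shBry values were above the shNC values, by little, and the log2 fold change was 0.20 (SE 0.11, edgeR adjusted p = 0.15). DNMT1 outweighed DNMT3A in each library. Per kilobase of exon, the ratio of DNMT1 to DNMT3A had a geometric mean of 25.1 in shNC and 11.2 in shBry, a difference of -1.17 on the log2 scale. The 3 shBry ratios were all below the 3 shNC ratios (two-sided exact permutation test, p = 0.1, the smallest that 3 against 3 allows, and 0.125 adjusted over the 5 ratios tested).

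TET3 and TET2 differed in level, and of these only TET3 was called. TET3, on chromosome 2 from 73986404 to 74108176 on the plus strand, had 82.9, 99.9 and 85.6 CPM in shBry and 38.1, 37.3 and 43.1 CPM in shNC. The lowest shBry value was well above the highest shNC value. TET3 rose by 1.18 on the log2 scale, or 2.27-fold (SE 0.10, edgeR adjusted p = 2.8e-07). No other gene overlaps its exons or shares a stretch of 50 bases with its transcripts.

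TET2, on chromosome 4 from 105145875 to 105279816 on the plus strand, was the lowest of the 10 genes, with 63 to 139 counts per library. It had 3.5, 5.86 and 2.79 CPM in shBry and 3.67, 4.16 and 3.66 CPM in shNC. Replicate 2 of shBry was above all shNC libraries, and the other two shBry libraries were below them. The log2 fold change was 0.09 (SE 0.25, edgeR adjusted p = 0.79), and without shBry replicate 2 it was -0.30 (edgeR adjusted p = 0.26), so no direction was resolved. The ratio of TET2 to TET3 per kilobase was lower in all shBry libraries than in all shNC libraries, with geometric means of 0.0324 and 0.0726 (two-sided exact permutation test, p = 0.1, adjusted 0.125).

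**Figure D2:**
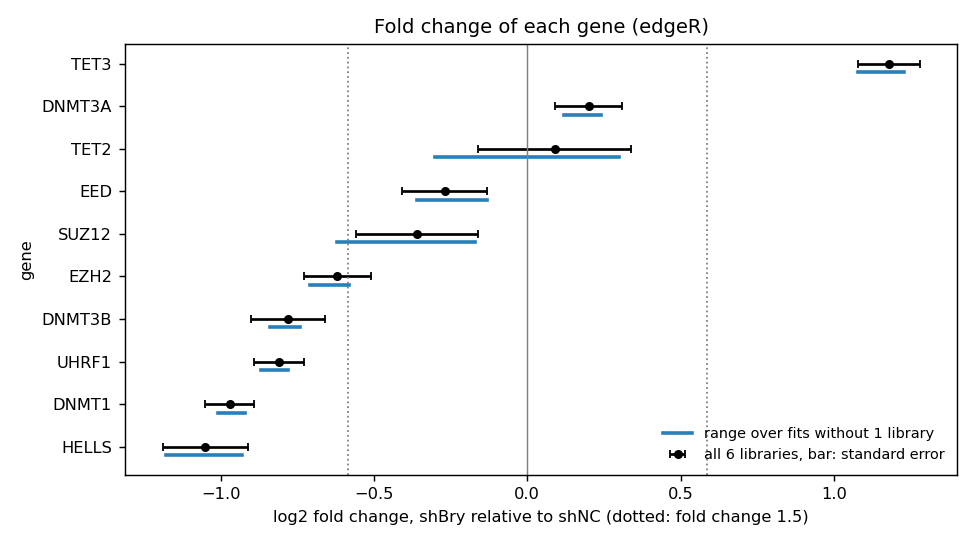
Log2 fold change of shBry relative to shNC for each gene from edgeR (x axis), with genes on the y axis. Black points and bars give the value and standard error from all 6 libraries, blue lines the range over the fits without 1 library, and dotted lines a fold change of 1.5. EZH2 lies at the limit, the range of SUZ12 crosses the limit, and that of TET2 crosses 0.

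Of the PRC2 core, the catalytic subunit was lower in shBry, and the partner subunits did not pass the test. EZH2, on chromosome 7 from 148807383 to 148884321 on the minus strand, had 27.1, 24.1 and 27.6 CPM in shBry and 41.5, 36.6 and 43.3 CPM in shNC. The groups did not overlap. EZH2 fell by 0.62 on the log2 scale (SE 0.11, edgeR adjusted p = 0.00023), close to the fold change limit. Without shBry replicate 2 the log2 fold change was -0.58, under the limit (edgeR adjusted p = 0.00025).

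SUZ12, on chromosome 17 from 31937018 to 32001045 on the plus strand, had 11.9, 22 and 16 CPM in shBry and 16.7, 20.8 and 26.8 CPM in shNC. The groups overlapped, and the values within a group varied more than those of the other PRC2 genes, with a coefficient of variation of 30.5% in shBry and 23.7% in shNC. The log2 fold change was -0.36 (SE 0.20, edgeR adjusted p = 0.15). It depended on single libraries, in either direction. Without shBry replicate 2 it was -0.62 (edgeR adjusted p = 0.0051), and SUZ12 was called in the place of EZH2. Without shBry replicate 1 it was -0.17 (edgeR adjusted p = 0.45), and without shNC replicate 3 it was -0.19 (edgeR adjusted p = 0.5). Without both shBry replicate 2 and shNC replicate 3, a choice made after the data were seen, SUZ12 had -0.45 and EZH2 -0.55, both under the limit, and 5 of the 10 genes were called. Of the stretches of 50 bases in SUZ12 transcripts, 7.66% occur in transcripts of other genes, most of them in SUZ12P1.

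EED, which encodes the subunit that reads methylated H3K27, lies on chromosome 11 from 86244544 to 86278813 on the plus strand. It had 18.5, 21.2 and 21.7 CPM in shBry and 22.1, 22 and 29.8 CPM in shNC. The highest shBry value lay just below the lowest shNC value, and the log2 fold change was -0.27 (SE 0.14, edgeR adjusted p = 0.12). Without shNC replicate 3 it was -0.13 (edgeR adjusted p = 0.41). Over all tested genes, 59.5% had groups that did not overlap, 28.9% with shBry below and 30.6% with shBry above.

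EZH1, the other catalytic subunit, had 52.1 ± 0.443 CPM in shBry and 49.7 ± 1.05 CPM in shNC (SD, n = 3), or 0.07 as log2 fold change (SE 0.08, edgeR adjusted p = 0.50). The order of the catalytic subunits per kilobase of exon differed between the groups. It depends on the exon lengths used, 4522 bases for EZH2 and 6988 for EZH1 over all annotated transcripts. Without division by length, EZH2 was below EZH1 in every library, with means of 26.3 CPM in shBry and 40.5 CPM in shNC. EZH2 had 8.95 ± 0.767 CPM per kilobase against 7.11 ± 0.153 for EZH1 in shNC, and 5.81 ± 0.419 against 7.46 ± 0.0676 in shBry. The log2 ratio of EZH2 to EZH1 was 0.34, 0.20 and 0.45 in shNC and -0.33, -0.49 and -0.27 in shBry. Its sign, which depends on these lengths, differed between the groups. The difference of -0.69 between the group means does not depend on them (two-sided exact permutation test, p = 0.1, adjusted 0.125). The level of EZH2 relative to SUZ12 showed no such separation, with a difference of -0.24 on the log2 scale (exact permutation p = 0.5), and without shBry replicate 2 it was 0.04.

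**Figure D3:**
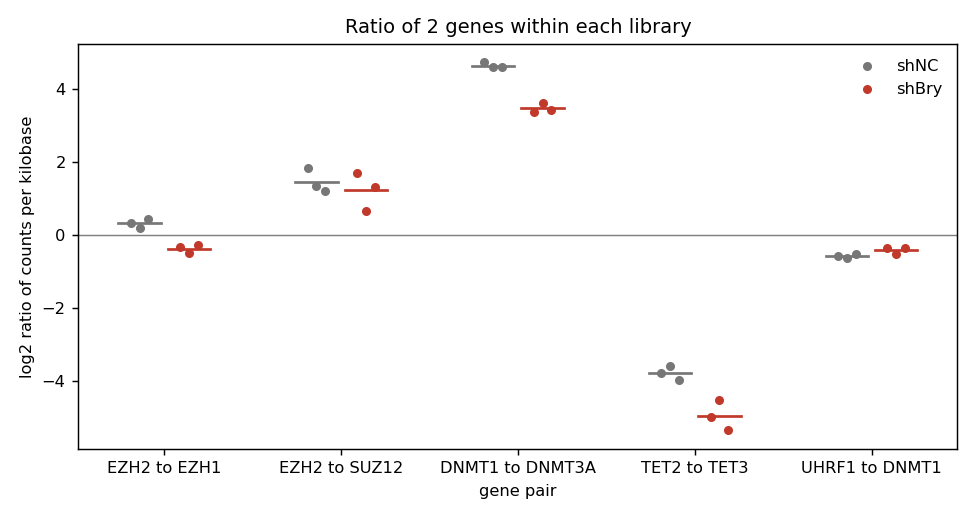
Log2 ratio of the counts per kilobase of a pair of genes within each library (y axis) for the 5 pairs (x axis), with shNC in grey, shBry in red and lines at group means (n = 3). The ratio of EZH2 to EZH1 lies above 0 in all shNC libraries and below 0 in all shBry libraries, and that of EZH2 to SUZ12 overlaps between the groups. The place of 0 depends on the exon lengths used.

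Per kilobase of exon, DNMT1 and UHRF1 were the highest of the 10 genes in both groups, with 43.5 ± 2.26 and 29.3 ± 1.70 CPM per kilobase in shNC and 22.3 ± 1.24 and 16.7 ± 1 in shBry, and TET2 was the lowest, with 0.232 ± 0.0174 and 0.246 ± 0.0976. In shNC, EZH2 followed UHRF1, and the values of DNMT3B, EED, HELLS, SUZ12 and TET3 lay close together, each overlapping its neighbour in the order. In shBry, TET3 followed UHRF1 with 7.29 ± 0.745 CPM per kilobase and lay apart from EZH2, while HELLS, with 1.63 ± 0.246, had moved below DNMT3A, with which it overlapped. These orders between genes depend on the exon lengths, taken over all annotated transcripts, which may differ from the transcripts expressed. The level of UHRF1 relative to DNMT1 differed by 0.16 on the log2 scale between the groups, with geometric mean ratios of 0.751 in shBry and 0.673 in shNC (two-sided exact permutation test, p = 0.1, adjusted 0.125).

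Genes of S phase were lower in the same libraries. Of 40 S-phase genes, from a list commonly used to score the cell cycle from which UHRF1, HELLS and CDCA7 were removed, 29 were called, each of them lower, and 36 had an adjusted p below 0.05, as had 53.3% of all tested genes. Their median log2 fold change was -0.96. The genes of this list with the smallest adjusted p were the helicase subunit genes MCM5 (log2 fold change -2.49) and MCM4 (-1.69) and the origin factor gene GINS2 (-1.88). The mean log2 CPM of the list was 4.62, 4.72 and 4.64 in shBry and 5.57, 5.64 and 5.84 in shNC. The level of each of the 10 genes was therefore also expressed relative to this mean in the same library.

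Relative to the S-phase mean, DNMT1 had 3.11 ± 0.08 in shBry and 3.05 ± 0.19 in shNC on the log2 scale (SD, n = 3), a difference of 0.06, and HELLS had -0.62 ± 0.17 and -0.60 ± 0.10, a difference of -0.02. These differences were smaller than the spread between replicates. For UHRF1 it was 0.22, with groups that overlapped. For DNMT3B it was 0.25 and for EZH2 0.40, and all 3 shBry values of each lay above the shNC values, so that these genes fell by less than the mean of the list. It was 0.64 for SUZ12, 0.77 for EED, 1.04 for TET2 and 1.23 for DNMT3A, none of which was called against all genes. TET3 had 1.82 ± 0.09 in shBry and -0.38 ± 0.05 in shNC, a difference of 2.20. Its log2 fold change alone was 1.18. The S-phase mean, which differed by -1.02 between the groups, was subtracted from every gene. A gene with unchanged CPM therefore also has a positive difference here, and such a value is not a rise. The part of the S-phase level in the fall of DNMT1, HELLS, UHRF1, DNMT3B and EZH2 was not tested, and the values are a description.

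**Figure D4:**
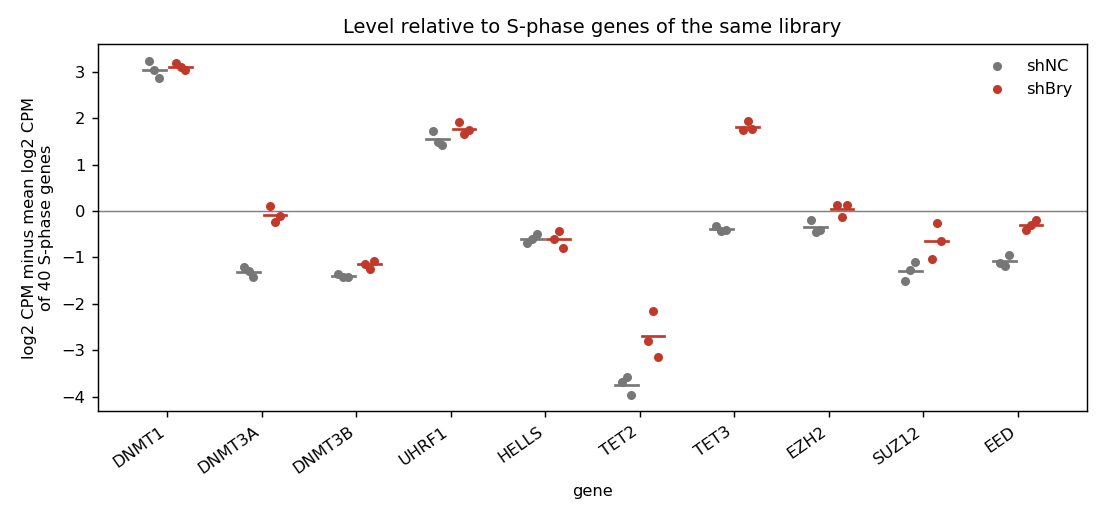
Level of each gene minus the mean level of 40 S-phase genes in the same library, both as log2 CPM (y axis), with shNC in grey, shBry in red and lines at group means (n = 3). The groups overlap for DNMT1, HELLS and UHRF1, and TET3 lies near -0.38 in shNC and near 1.82 in shBry.

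Other genes of DNA methylation were read from a list of 21 genes, of which 19 were tested and 2 were listed at 0 in all libraries. Of the tested genes, 1 was called higher and 5 lower, with a median log2 fold change of -0.15. The share called was close to the 32.4% of all tested genes. TDG, the glycosylase that removes oxidized methylcytosine, rose from 21.1 ± 1.56 to 35.3 ± 0.307 CPM (SD, n = 3), or 0.75 as log2 fold change (edgeR adjusted p = 4e-05). Of its stretches of 50 bases, 6.74% occur in transcripts of other genes. CDCA7L, a paralog of the HELLS partner gene CDCA7, fell from 98.3 ± 6.83 to 43.9 ± 1.66 CPM, or -1.16 as log2 fold change (edgeR adjusted p = 9.2e-08), and DNAH11 overlaps 20.4% of its exon bases. CDCA7 itself, named after its value was seen, had a log2 fold change of -0.46 (edgeR adjusted p = 0.0021), under the fold change limit. IDH1 and IDH2 encode isocitrate dehydrogenases that make the TET cosubstrate 2-oxoglutarate. They fell by 0.76 and 1.29 on the log2 scale, from 83.7 ± 3 to 49.4 ± 2.67 CPM and from 65.3 ± 3.87 to 26.8 ± 2.15 CPM. IDH3A, of the same list and named after its value was seen, went the other way. Its log2 fold change was 0.42 (edgeR adjusted p = 0.0028), under the fold change limit. TET1, the TET gene of early embryonic cells and also named after its values were seen, was called lower, with 4, 7 and 2 counts in shBry and 12, 18 and 16 in shNC (edgeR adjusted p = 0.0067). These counts are too low for a firm fold change.

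Of 12 genes that read methylated CpG or act with the readers, 1 was called, the histone methyltransferase gene SETDB2, with a log2 fold change of 0.68 (edgeR adjusted p = 0.012) from 3.53 ± 0.657 to 5.64 ± 0.951 CPM. Without shBry replicate 3 or without shNC replicate 1, SETDB2 had 0.57 and was not called (edgeR adjusted p = 0.059 and 0.061). The number called was 2 under several alternatives, and the median log2 fold change was -0.09. With 1 called of 12, the share was below the 32.4% of all tested genes.

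Of 11 further PRC2 genes, 9 were tested, with 1 called higher and 2 lower and a median log2 fold change of 0.07. The share called was close to the 32.4% of all tested genes. The histone chaperone genes RBBP4 and RBBP7, whose products also serve other complexes, were lower in shBry. RBBP4 had 39.6, 55.8 and 52.9 CPM in shBry and 84.2, 94.6 and 117 CPM in shNC, or -0.99 as log2 fold change (edgeR adjusted p = 2.8e-05). SYNC overlaps 18% of its exon bases. RBBP7 fell from 221 ± 20.1 to 135 ± 7.86 CPM, or -0.71 as log2 fold change (edgeR adjusted p = 1.1e-05). LCOR, which gives rise to an accessory PRC2 protein as well as a nuclear receptor corepressor, had 7.43, 16 and 7.54 CPM in shBry and 4.81, 3.64 and 6.01 CPM in shNC. It was called higher, with a log2 fold change of 1.11 (edgeR adjusted p = 0.004), of which 0.62 was left without shBry replicate 2 (edgeR adjusted p = 0.013).

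Of 28 PRC1 genes, which encode the complex that ubiquitinates histone H2A, 27 were tested, with 1 called higher and 3 lower and a median log2 fold change of 0.01. The share called was below the 32.4% of all tested genes. The chromodomain genes CBX7 and CBX2 had log2 fold changes of -0.78 and -0.63 (edgeR adjusted p = 2.5e-05 and 7.1e-05), and 21.6% of the exon bases of CBX7 lie in exons of other genes. AUTS2, at 1.08 ± 0.228 CPM in shBry and 2.34 ± 0.557 CPM in shNC, had -1.11, and YAF2, a subunit of a PRC1 variant, had 0.73. RING1 had at most 3 counts in any library and was removed by the filter.

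The H3K27 demethylase genes KDM6B and KDM6A, whose products remove the PRC2 mark, were higher in shBry. Of 9 genes of the Polycomb deubiquitinase and the H3K27 demethylases, 7 were tested, 2 were called, both higher, and 5 had an adjusted p below 0.05. Among all tested genes, 32.4% were called and 53.3% had an adjusted p below 0.05. BAP1, the gene of the deubiquitinase, named after its value was seen, went the other way. Its log2 fold change was -0.54 (edgeR adjusted p = 5.3e-05), under the fold change limit. KDM6B, on chromosome 17 from 7839904 to 7854796, had 150, 156 and 142 CPM in shBry and 45.5, 41.7 and 41.7 CPM in shNC. It rose by 1.80 on the log2 scale, or 3.48-fold (SE 0.08, edgeR adjusted p = 7.6e-10), and the groups were far apart. KDM6A, its paralog on chromosome X, rose from 6.03 ± 0.199 to 9.8 ± 0.514 CPM, or 0.70 as log2 fold change (edgeR adjusted p = 0.001).

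**Figure D5:**
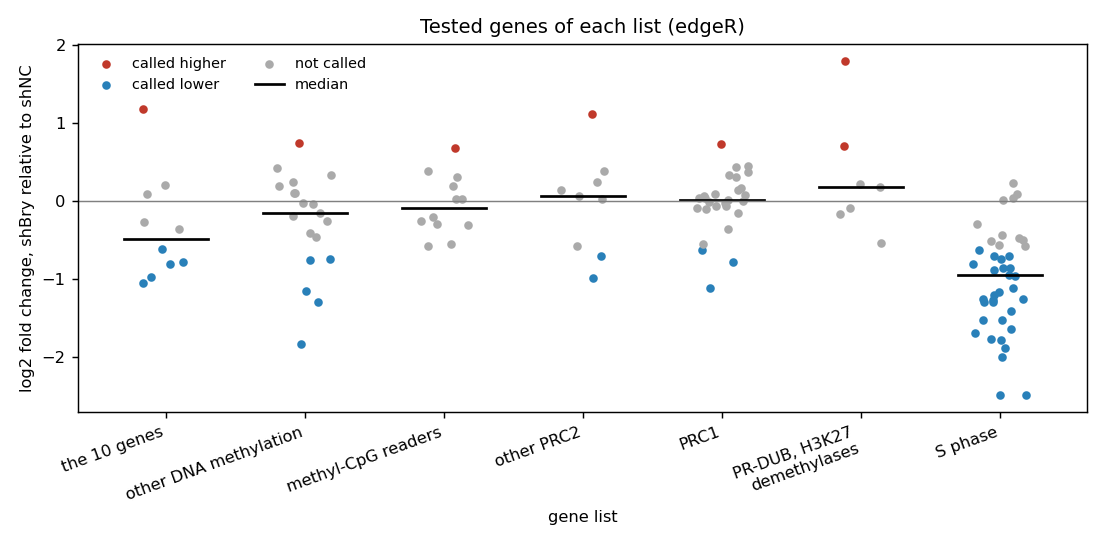
Log2 fold change of shBry relative to shNC (y axis) of every tested gene in the 7 gene lists shown (x axis). Points are genes, red where called higher, blue where called lower and grey where not called, and black lines are medians. The S-phase genes have the lowest median, -0.96, and the highest point is KDM6B at 1.80.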

How the data were processed

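Total RNA of 3 MDA-MB-231 shBry and 3 shNC libraries was sequenced. The authors deposited raw counts per gene symbol, 1 column per library, without normalization. The submitters' processing notes name HISAT2 2.0.4, HTSeq and GRCh38. The annotation and the strand setting are not given in the sources used here, so overlapping genes could share reads. The methods give a threshold on p and a fold change limit of 1.5 for the RNA-Sequence data, and name no test for these data.

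Libraries were grouped by their labels. Genes were filtered with filterByExpr (minimum count 10), scaled with TMM and compared in edgeR 4.0.16 (R 4.3.3, glmQLFit and glmQLFTest), with Benjamini-Hochberg adjustment over all 15277 tested genes. Standard errors are the log2 fold change divided by the square root of F. CPM values and deviations (mean ± SD) are TMM-normalized. Fitted fold changes use edgeR's default prior count. Log2 CPM values for the S-phase comparison and the ratios within a library used 0.5 added counts, and the ratios were divided by exon length. The 5 ratios were compared by exact permutation tests. Depth was 19319411 to 22985371 counts per library. Alternatives used DESeq2 1.42.0 and limma 3.58.1, other scalings and filters, other limits, a replicate block and fits without single libraries. The fit was tested on simulated data.

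All 10 genes are named. From each further list, up to 3 genes called higher and 3 called lower were named by adjusted p, with a mean of at least 1 CPM. The genes and lists were chosen with earlier results of these data known. Locations and exon lengths came from GENCODE 29 on GRCh38, matched by symbol, and promoter sequences from RefSeq (GRCh38.p14). The result of 1 single gene of the lists is not reported here.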

Additional observations from a re-analysis of the deposited data

How the results depend on the processing

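A fold change limit of 2 left 2297 called genes, of which 2 were among the 10 genes, and no limit gave 8139, against 4945 and 6 with the limit of 1.5. Under the other alternatives that kept all libraries, the same 6 of the 10 genes were called. With 1 library left out, between 4587 and 5025 genes and 6 of the 10 genes were called, but without shBry replicate 2 SUZ12 took the place of EZH2. The log2 fold change of TET2 lay between -0.30 and 0.30 with 1 library left out. It turned to -0.30 without shBry replicate 2 and to -0.36 without both that library and shNC replicate 3, the latter pair chosen after seeing the data. The difference in the ratio of EZH2 to SUZ12 lay between -0.48 and 0.04 with 1 library left out, and it changed sign without shBry replicate 2. With the replicate number as a block, 4914 genes were called and 6 of the 10. The numbers were not taken as pairs, since the deviations of libraries with the same number correlated at 0.159, -0.066 and -0.018 over genes, and not every library correlated best with its own number. For the ratios, 3 against 3 cannot give p below 0.1. Depth limited TET2, with 63 to 139 counts per library, and TET1.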

Other observations

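Genes known as targets of DNA methylation or PRC2 were also read, as values. Of 28 germline genes known for promoter methylation in somatic cells, 24 did not pass the expression filter, 15 of them with 0 counts in all libraries and the others with at most 11 counts in a library. Of the 4 tested, 1 was called, and it was higher, while 32.4% of all tested genes were called. This was SPANXB1, a testis antigen gene, with 5.84 ± 1.40 CPM in shBry and 3.08 ± 0.707 CPM in shNC (SD, n = 3), or 0.92 as log2 fold change (edgeR adjusted p = 0.0044). Of its stretches of 50 bases, 21.7% occur in transcripts of other genes, most of them in SPANXA2, so its count is uncertain. Shared stretches were not counted for the other genes of this list, so low or 0 counts there do not show silence.

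Of 32 developmental transcription factor genes that PRC2 classically marks, 21 did not pass the filter, 13 of them with 0 counts in all libraries. Of the 11 tested, 3 were called higher and 2 lower, with a median log2 fold change of 0.23. GATA6, a factor of endoderm and heart, rose from 5.04 ± 0.411 to 11.5 ± 0.676 CPM, or 1.18 as log2 fold change (edgeR adjusted p = 1.4e-05). FOXA2 and FOXD3 had log2 fold changes of 1.43 and 1.35, at 2.57 ± 0.143 and 1.6 ± 0.482 CPM in shBry, and without shNC replicate 3 FOXD3 had 0.97 and was not called (edgeR adjusted p = 0.052). SIX2, a factor of kidney progenitors, fell from 18.8 ± 1.04 to 7.3 ± 0.422 CPM, or -1.37 as log2 fold change (edgeR adjusted p = 9.5e-07), and NKX2-1, a factor of lung and thyroid, had -1.05. With 5 called of 11, against 32.4% of all tested genes, the genes moved in both directions.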
